A study of Homo sapiens with 8 samples.

Results

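Aminoacyl-tRNA synthetases (tRNA synthetases) of the cytosol and of the mitochondrion were followed in A549, a human lung adenocarcinoma cell line, across SRC-1 knockdown and glucose. The gene list held 38 names, of which 22 were cytosolic (names ending in 1, FARSA, FARSB and the 2 AIMP genes) and 16 mitochondrial (names ending in 2, except AIMP2). Members were measured through every probe set that the array annotation ties to one of these genes alone. Such probe sets were found for 33 genes, 18 cytosolic and 15 mitochondrial, by 70 of the 54675 probe sets on the array. MARS1, QARS1, AIMP2, EEF1E1 and TARS2 had none and were not analysed here.

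Cells received SRC-1 siRNA or a control siRNA and were then given medium with glucose or lacking it. That made 4 groups, each with 2 arrays that the labels call biological replicates. SRC-1, steroid receptor coactivator 1, is encoded by NCOA1. All 4 groups were transfected with DharmaFECT 1 and held for 36 h in 10% dialyzed serum (serum depleted of small molecules such as sugars) before the change of medium. The question put to the arrays was what SRC-1 loss does to mRNA levels in each medium. How long the last step lasted, and whether the siRNA was 1 sequence or a pool, is not stated in the sources used. No untransfected cells are among the groups, and all data come from 1 cell line.

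A tRNA synthetase joins an amino acid to its tRNA, which then carries it to the ribosome. The cytosol and the mitochondrion use largely separate sets of these enzymes, both encoded in the nucleus, and the GARS1 and KARS1 genes each supply both compartments. Several cytosolic enzymes sit in a multi-synthetase complex held together by AIMP scaffold proteins, while others act free of it. Uncharged tRNA activates the kinase GCN2, and stress in the endoplasmic reticulum activates the kinase PERK. Both phosphorylate the initiation factor eIF2, which raises translation of the transcription factor ATF4. ATF4 is known to bind, with C/EBP partners, to a short element in the promoters of several cytosolic tRNA synthetase genes.

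Most of the cytosolic mRNAs were lower with glucose (values below the sequences), and the promoters of all members were searched for that element, the C/EBP-ATF response element TGATGNAA, on both strands. Of the 33 genes measured, 28 had a RefSeq promoter window of 300 bases, from 250 before to 50 after an annotated transcript start (GRCh38.p14), and YARS1, LARS1, VARS1, VARS2 and AARS2 had none in the table. Some genes had several windows, and a gene was counted when any of its windows held the element. The stretches shown are those of the 6 cytosolic genes that were lower with glucose and held it, with 26 bases on either side, read 5' to 3' in the direction of the gene, with the element in capitals:
AARS1: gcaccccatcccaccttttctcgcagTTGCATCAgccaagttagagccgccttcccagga
CARS1: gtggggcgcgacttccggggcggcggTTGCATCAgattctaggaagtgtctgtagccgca
GARS1: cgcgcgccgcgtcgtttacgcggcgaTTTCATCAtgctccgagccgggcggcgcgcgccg
IARS1: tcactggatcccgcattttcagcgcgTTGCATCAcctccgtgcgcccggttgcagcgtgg
NARS1: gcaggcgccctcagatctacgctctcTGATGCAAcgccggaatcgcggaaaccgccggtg
TARS1: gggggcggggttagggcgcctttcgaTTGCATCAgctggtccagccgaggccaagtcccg

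These stretches lie at chr16:70289660-70289719 for AARS1, chr11:3057392-3057451 for CARS1 and chr9:92293677-92293736 for IARS1, all on the minus strand. They lie at chr18:57621789-57621848 on the minus strand for NARS1, and on the plus strand at chr7:30594819-30594878 for GARS1 and chr5:33440941-33441000 for TARS1. In AARS1, CARS1, IARS1 and TARS1 the match is the same 8 letters on the strand opposite to the gene, and in NARS1 it is those letters on the gene's own strand. GARS1 differs in the letter that the motif leaves free. CARS1, GARS1 and TARS1 each had 2 windows, and only 1 of the 2 held the match. Their distances are from the transcript start of that window. The match begins 187 bases before the transcript start in AARS1, 33 before it in GARS1, 13 before it in IARS1 and 2 before it in CARS1. In TARS1 it begins 2 bases after the start and in NARS1 14 bases after it. For wider context, the whole windows of the 3 of these genes with the largest changes are chr16:70289457-70289756 (minus strand), chr11:3057374-3057673 (minus strand) and chr7:30594628-30594927 (plus strand):
AARS1: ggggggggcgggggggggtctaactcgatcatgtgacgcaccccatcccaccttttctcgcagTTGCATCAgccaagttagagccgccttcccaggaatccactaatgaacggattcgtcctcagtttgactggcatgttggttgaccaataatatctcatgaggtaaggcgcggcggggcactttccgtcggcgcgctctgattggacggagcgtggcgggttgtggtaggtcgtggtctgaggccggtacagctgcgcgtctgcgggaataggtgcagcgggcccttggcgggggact
CARS1: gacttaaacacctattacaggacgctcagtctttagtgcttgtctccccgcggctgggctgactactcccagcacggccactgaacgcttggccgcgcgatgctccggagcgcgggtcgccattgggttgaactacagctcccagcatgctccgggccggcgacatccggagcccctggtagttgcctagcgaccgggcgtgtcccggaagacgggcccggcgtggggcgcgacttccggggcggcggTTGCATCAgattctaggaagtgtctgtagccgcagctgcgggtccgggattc
GARS1: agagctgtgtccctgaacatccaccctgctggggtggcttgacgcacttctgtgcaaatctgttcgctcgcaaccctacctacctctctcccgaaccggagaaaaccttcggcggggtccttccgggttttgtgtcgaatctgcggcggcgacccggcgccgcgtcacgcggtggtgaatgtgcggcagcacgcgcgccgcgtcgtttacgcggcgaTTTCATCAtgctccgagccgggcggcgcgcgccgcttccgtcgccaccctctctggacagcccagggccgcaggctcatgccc

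Of 10 cytosolic genes lower with glucose that had a window, these 6 held the element, against 81 of the 2385 genes with a window that were lower with glucose under control siRNA and 2.96% of all 10911 genes tested with a window. Of all 35116 windows in the table, 3.62% held it. No match was found in the windows of WARS1, SARS1, EPRS1 or AIMP1, which were also lower. It was found in 0 of the 2 cytosolic genes that were higher (HARS1 and RARS1) and in 0 of the 3 that were not called (FARSA, FARSB and KARS1). Among 13 mitochondrial genes with a window, 1 held it, YARS2, whose signal was not called changed. A match describes these letters and is not a measurement of binding.

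**Figure D1:**
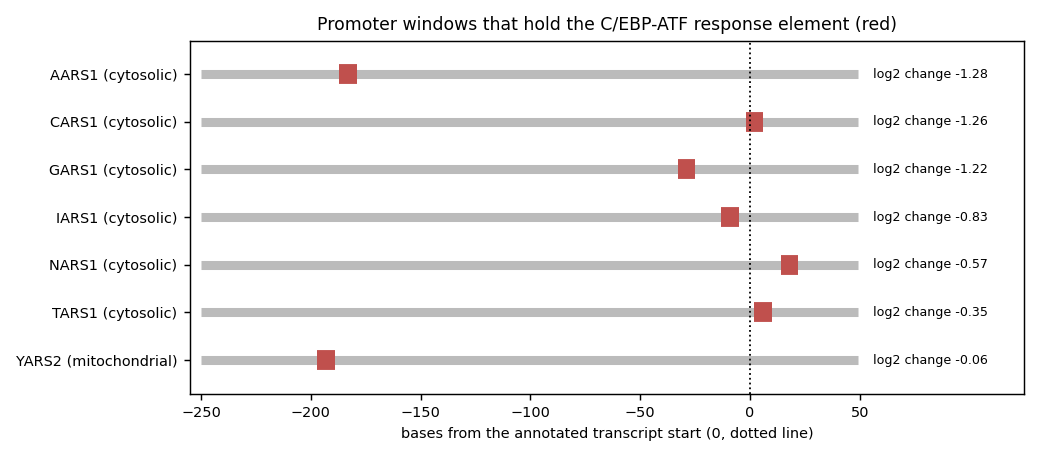
Promoter windows of the 7 genes with a match, drawn as grey bars from 250 bases before the annotated transcript start to 50 after it, with the element in red and the log2 change with glucose under control siRNA at the right. In 5 of the 6 cytosolic genes the element begins within 33 bases of the transcript start whose window held it.

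The targeted mRNA was examined first. On the brightest NCOA1 probe set the log2 signal was 5.47 and 5.18 with SRC-1 siRNA against 8.60 and 8.42 with control siRNA in glucose. Without glucose it was 5.22 and 5.09 with SRC-1 siRNA against 8.34 and 8.24 with control siRNA. The siRNA groups did not overlap. The 2 arrays of a group correlated at 0.997 to 0.998 over genes. Of the markers checked, 7 epithelial and A549 genes stood between the 78.5th percentile of probe sets (EPCAM) and the 100.0th (AKR1C1), and 6 leukocyte, endothelial and fibroblast genes between the 10.4th (PTPRC) and the 76.6th (COL1A1). The difference between the 3' and 5' control probe sets, a sign of RNA integrity, was 0.51 to 0.64 with glucose and 0.41 to 0.54 without for beta-actin, and 0.14 to 0.17 with and 0.12 to 0.14 without for GAPDH. These ranges differ slightly between the media, and their part in the results was not tested. In bulk RNA, fewer cells with a transcript and less of it per cell cannot be told apart.

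With glucose, mRNAs of cytosolic tRNA synthetases were mostly lower than without it. Of 18 cytosolic genes, 13 were called lower with SRC-1 siRNA and the same 13 with control siRNA, at an adjusted p below 0.05 (limma over 13584 genes with Benjamini-Hochberg adjustment). Of all genes tested, 20.0% were lower with SRC-1 siRNA and 21.6% with control siRNA. The median log2 change of the 18 genes was -0.54 with SRC-1 siRNA and -0.56 with control siRNA, while that of all genes was 0.0059 and 0.00088. HARS1 and RARS1 were called higher in both arms, where 24.6% and 23.6% of all genes were. FARSA, FARSB and KARS1 were called in neither arm. Mitochondrial synthetases showed no common direction: of 15 genes, 3 were lower and 2 higher with SRC-1 siRNA, and 2 lower and 3 higher with control siRNA. Their median changes were 0.028 and -0.017. At 2-fold or more, 6 cytosolic genes and 0 mitochondrial genes were lower in each arm, against 2.03% of all genes with SRC-1 siRNA and 2.16% with control siRNA. At 1.5-fold or more, 8 of the 18 cytosolic genes were lower in each arm, where 6.40% and 6.97% of all genes were, and of the mitochondrial genes 1 was, WARS2 with control siRNA. LARS2 was the 1 member higher at that fold in each arm, and 8.36% and 7.85% of all genes were.

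**Figure D2:**
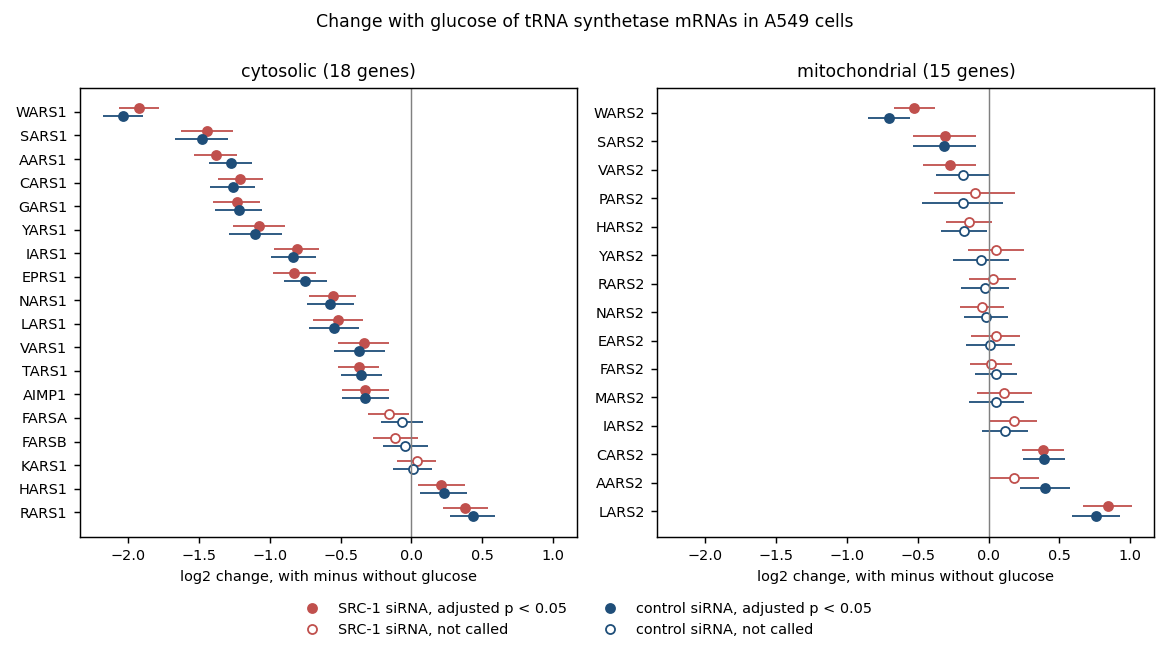
Log2 change with glucose (with minus without, x axis) of 18 cytosolic genes (left) and 15 mitochondrial genes (right), in red with SRC-1 siRNA and in blue with control siRNA. Points are differences of 2 arrays against 2, bars are 95% intervals and filled points passed an adjusted p of 0.05. WARS1 has the largest fall of the members, -1.92 with SRC-1 siRNA and -2.04 with control siRNA, and LARS2 the largest rise, 0.84 and 0.76.

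WARS1, the tryptophan enzyme, fell most. Its log2 signal was 10.07 and 10.03 with glucose against 11.99 and 11.95 without glucose under SRC-1 siRNA, and 9.98 and 9.95 with against 12.02 and 11.99 without under control siRNA. The replicates lay within 0.05 of each other in every group and the media were far apart. The change was -1.92 ± 0.062 (SE, n = 2 per group) with SRC-1 siRNA and -2.04 ± 0.062 with control siRNA, or 3.80-fold and 4.10-fold lower (limma adjusted p = 6.38e-07 and 4.14e-07). WARS1 is also known as a gene induced by interferon.

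SARS1, the serine enzyme, stood at 10.03 and 10.18 with glucose against 11.61 and 11.50 without under SRC-1 siRNA. Under control siRNA it stood at 9.99 and 10.11 with glucose against 11.52 and 11.54 without. No array with glucose reached an array without it, and the change was -1.44 ± 0.081 with SRC-1 siRNA and -1.48 ± 0.081 with control siRNA. A second SARS1 probe set gave -1.29 and -1.53.

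AARS1, the alanine enzyme and 1 of the genes with the promoter element shown above, had signals of 10.54 and 10.47 with glucose against 11.93 and 11.84 without under SRC-1 siRNA. Under control siRNA these were 10.56 and 10.60 with glucose against 11.85 and 11.86 without. The media did not overlap, and AARS1 was 2.60-fold lower with SRC-1 siRNA (-1.38 ± 0.067) and 2.42-fold lower with control siRNA (-1.28 ± 0.067).

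CARS1, the cysteine enzyme, had signals of 10.92 and 10.89 with glucose against 12.05 and 12.17 without under SRC-1 siRNA. Under control siRNA CARS1 stood at 10.91 and 10.84 with glucose against 12.12 and 12.15 without. All arrays with glucose were lower, and the changes were -1.21 ± 0.070 and -1.26 ± 0.070. GARS1, the glycine enzyme of both compartments, had signals of 11.97 and 11.90 with glucose against 13.18 and 13.16 without under SRC-1 siRNA. Under control siRNA GARS1 stood at 12.06 and 11.91 with glucose against 13.19 and 13.21 without. It was lower on every array with glucose, by 2.35-fold with SRC-1 siRNA (-1.23 ± 0.072) and 2.33-fold with control siRNA (-1.22 ± 0.072).

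YARS1, the tyrosine enzyme, had signals of 10.63 and 10.71 with glucose against 11.81 and 11.68 without under SRC-1 siRNA. With control siRNA they were 10.60 and 10.67 with glucose against 11.66 and 11.81 without. The change was -1.07 ± 0.081 with SRC-1 siRNA and -1.10 ± 0.081 with control siRNA, with no overlap. A second, dimmer YARS1 probe set (mean log2 signal 5.20 against 11.19) gave -0.066 and -0.11 and was not called. The YARS1 call therefore rests on its brighter one. Averaged over both, the YARS1 change was -0.57 and -0.60, and both were called.

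IARS1 and EPRS1, which encode the isoleucine enzyme and the joint glutamate and proline enzyme of the multi-synthetase complex, fell less. IARS1 had signals of 12.23 and 12.15 with glucose against 12.95 and 13.04 without under SRC-1 siRNA, and 12.15 and 12.23 with against 13.03 and 13.02 without under control siRNA. EPRS1 stood at 10.37 and 10.30 with glucose against 11.18 and 11.14 without under SRC-1 siRNA, and at 10.41 and 10.39 with against 11.11 and 11.19 without under control siRNA. In both genes all 4 arrays with glucose lay below all 4 without. The IARS1 change was -0.81 ± 0.069 with SRC-1 siRNA and -0.83 ± 0.069 with control siRNA. The EPRS1 change was -0.83 ± 0.066 with SRC-1 siRNA and -0.75 ± 0.066 with control siRNA.

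On their brightest probe sets, the other cytosolic genes called lower changed by less than 1.5-fold in both arms. NARS1 (asparagine) differed by -0.55 with SRC-1 siRNA and -0.57 with control siRNA, and LARS1 (leucine) by -0.52 and -0.55. TARS1 (threonine) differed by -0.37 and -0.35, VARS1 (valine) by -0.34 and -0.37, and the scaffold gene AIMP1 by -0.32 and -0.33. Averaging the probe sets of a gene moved some of these values by over 1.5 times. It gave -0.72 with SRC-1 siRNA and -0.55 with control siRNA for TARS1, and with control siRNA -0.18 for VARS1, -0.36 for LARS1 and -0.20 for AIMP1, all still called. For AIMP1 with SRC-1 siRNA it gave -0.13, which was not called. The AIMP1 call was lost on a probe set whose name does not end in _s_at (0.036 with SRC-1 siRNA and -0.083 with control siRNA), so its direction is not settled. A second, dimmer VARS1 probe set had a mean of 6.48 both with and without glucose under control siRNA. Under SRC-1 siRNA its means were 6.42 with glucose and 6.56 without. The VARS1 call with control siRNA therefore rests on the brighter probe set. Of the multi-synthetase complex, 6 genes were measured (EPRS1, IARS1, KARS1, LARS1, RARS1 and AIMP1). In each arm 4 of them were lower, AIMP1 included, and 1 was higher. Their median was -0.42 with SRC-1 siRNA and -0.44 with control siRNA. Of the 12 cytosolic genes outside the complex, 9 were lower and 1 higher in each arm, with medians of -0.81 and -0.84. Of all genes, 20.0% were lower and 24.6% higher with SRC-1 siRNA, and 21.6% lower and 23.6% higher with control siRNA. Whether the complex and the genes outside it differ was not tested.

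**Figure D3:**
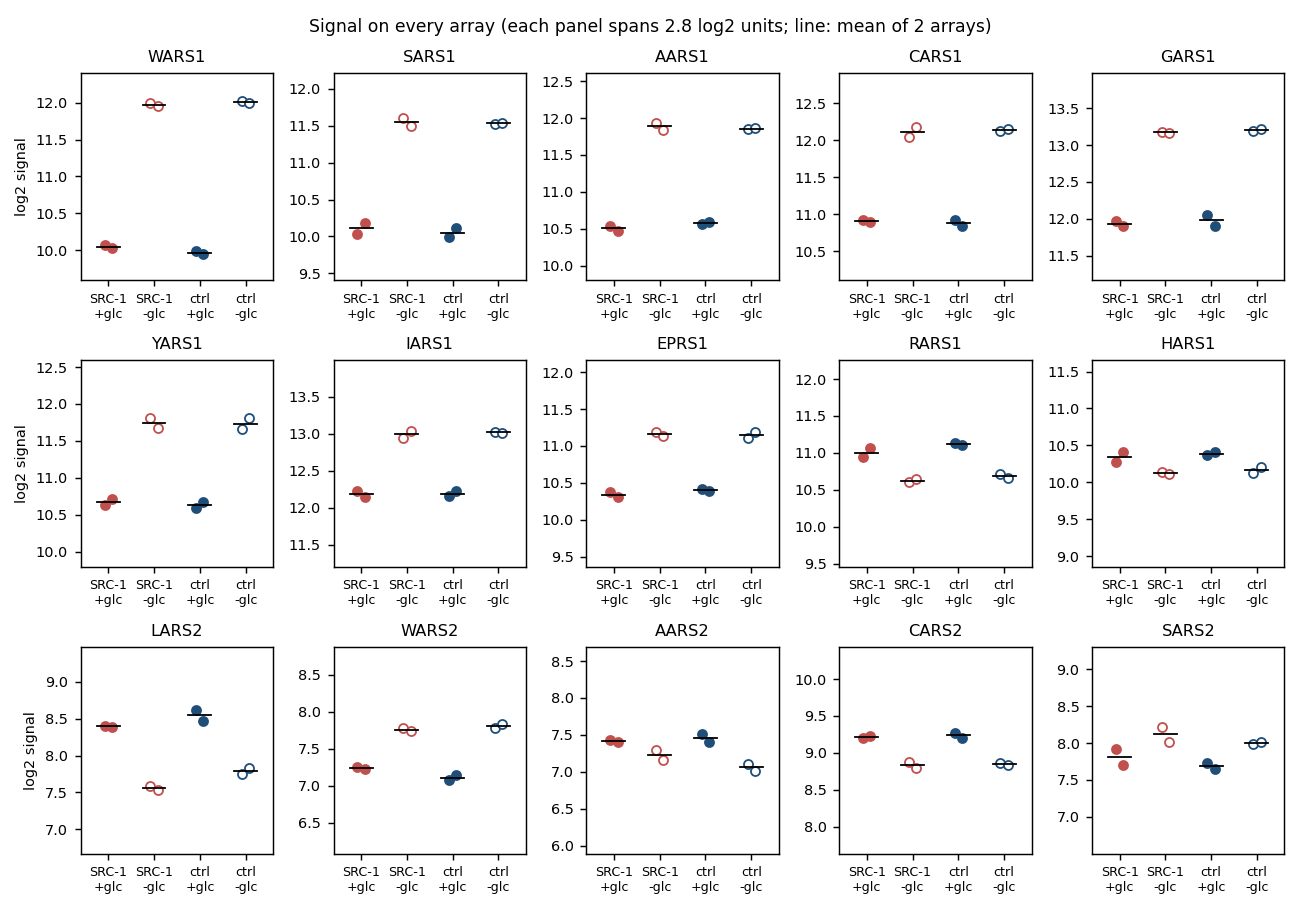
Log2 signal (y axis, each panel spanning the same range) on each of the 8 arrays for 15 members, as points in red with SRC-1 siRNA and in blue with control siRNA, filled with glucose and open without, and a line at the mean of 2 arrays. The first 8 panels show cytosolic genes that lie lower with glucose, RARS1 and HARS1 lie higher, and the last 5 are mitochondrial.

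RARS1 and HARS1 were higher, opposite to the 13 cytosolic genes called lower. RARS1, the arginine enzyme of the complex, had signals of 10.94 and 11.06 with glucose against 10.60 and 10.64 without under SRC-1 siRNA, and 11.13 and 11.11 with against 10.71 and 10.66 without under control siRNA. The media did not overlap, and the change was 0.38 ± 0.069 (adjusted p = 0.00240, limma) with SRC-1 siRNA and 0.43 ± 0.069 (adjusted p = 0.00118, limma) with control siRNA. HARS1, the histidine enzyme, had signals of 10.27 and 10.41 with glucose against 10.14 and 10.12 without under SRC-1 siRNA, and 10.37 and 10.41 with against 10.12 and 10.20 without under control siRNA. Its rise was small, 0.21 ± 0.072 (adjusted p = 0.0413, limma) with SRC-1 siRNA and 0.23 ± 0.072 (adjusted p = 0.0314, limma) with control siRNA. It lost its call without a filter on dim probe sets (adjusted p = 0.0815 with SRC-1 siRNA and 0.0637 with control siRNA). With SRC-1 siRNA the HARS1 call was lost in 12 of 19 alternatives and with control siRNA in 6 of 19, which include leaving out any 1 array of the control arm.

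KARS1, the lysine enzyme of both compartments, had signals of 13.31 and 13.32 with glucose against 13.27 and 13.30 without under SRC-1 siRNA, and 13.29 and 13.30 with against 13.27 and 13.30 without under control siRNA. The media overlapped with control siRNA and lay close together without overlap with SRC-1 siRNA. The 95% interval of the change was -0.10 to 0.17 with SRC-1 siRNA and -0.13 to 0.15 with control siRNA. FARSA and FARSB encode the 2 subunits of the phenylalanine enzyme. FARSA differed by -0.16 with SRC-1 siRNA (95% interval -0.31 to -0.014, adjusted p = 0.0729, limma) and by -0.066 with control siRNA (-0.21 to 0.082). FARSB differed by -0.11 (-0.27 to 0.045) and -0.045 (-0.20 to 0.11).

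Over all 4 arrays of a medium, without regard to siRNA, 14 of the 18 cytosolic genes were lower on every array with glucose than on any array without. The same held for 25.3% of all genes. The 2 cytosolic genes with the opposite order were HARS1 and RARS1, and 28.6% of all genes had that order. Of the 15 mitochondrial genes, 4 (WARS2, SARS2, VARS2 and HARS2) were lower and 4 (LARS2, AARS2, CARS2 and IARS2) higher without overlap. The shares of the mitochondrial genes are therefore near those of all genes.

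Among mitochondrial enzymes LARS2, for leucine, rose most. LARS2 had signals of 8.41 and 8.39 with glucose against 7.59 and 7.53 without under SRC-1 siRNA, and 8.62 and 8.47 with against 7.75 and 7.83 without under control siRNA. The media did not overlap, and LARS2 was 1.79-fold higher with SRC-1 siRNA (0.84 ± 0.075, adjusted p = 5.09e-05, limma) and 1.69-fold higher with control siRNA (0.76 ± 0.075, adjusted p = 8.89e-05, limma). Its second probe set gave 0.45 and 0.65.

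WARS2, the mitochondrial tryptophan enzyme, moved the same way as WARS1 but less. WARS2 had signals of 7.25 and 7.22 with glucose against 7.78 and 7.74 without under SRC-1 siRNA, and 7.08 and 7.14 with against 7.79 and 7.83 without under control siRNA. It was lower on every array with glucose, by -0.52 ± 0.064 with SRC-1 siRNA and -0.70 ± 0.064 with control siRNA, and a second probe set gave -0.40 and -0.56.

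CARS2 and AARS2, the mitochondrial enzymes for cysteine and alanine, lay above their signals without glucose. CARS2 stood at 9.21 and 9.23 with glucose against 8.87 and 8.79 without under SRC-1 siRNA, and at 9.27 and 9.21 with against 8.87 and 8.84 without under control siRNA (changes of 0.38 ± 0.066 and 0.39 ± 0.066). Averaged over its probe sets that passed the filter, CARS2 gave 0.050 and 0.10 and was not called. AARS2 stood at 7.43 and 7.40 with glucose against 7.30 and 7.17 without under SRC-1 siRNA, and at 7.51 and 7.40 with against 7.10 and 7.02 without under control siRNA. The AARS2 change was 0.18 ± 0.077 with SRC-1 siRNA (adjusted p = 0.0875, limma) and 0.40 ± 0.077 with control siRNA (adjusted p = 0.00312, limma), and the difference between the arms was not called (-0.22 ± 0.11). A second AARS2 probe set gave 0.46 with SRC-1 siRNA and 0.52 with control siRNA, both called among single probe sets, so the smaller change with SRC-1 siRNA was not seen on it.

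SARS2, the mitochondrial serine enzyme, had signals of 7.92 and 7.70 with glucose against 8.22 and 8.01 without under SRC-1 siRNA, and 7.73 and 7.64 with against 7.98 and 8.01 without under control siRNA. It was lower by -0.31 ± 0.097 in both arms (adjusted p = 0.0301 and 0.0291, limma), a call lost without the filter (adjusted p = 0.0538 and 0.0519). With control siRNA the SARS2 call was also lost when any 1 of that arm's 4 arrays was left out. With SRC-1 siRNA it was lost without replicate 1 lacking glucose (-0.21) and without replicate 2 with glucose (-0.20). VARS2 (valine) differed by -0.27 ± 0.081 with SRC-1 siRNA (adjusted p = 0.0233, limma) and by -0.18 ± 0.081 with control siRNA (adjusted p = 0.0990, limma). The VARS2 call with SRC-1 siRNA was lost without any 1 of 3 of that arm's 4 arrays (limma adjusted p of 0.0675 to 0.133), all but replicate 2 with glucose. The remaining 9 mitochondrial genes, EARS2, FARS2, HARS2, IARS2, MARS2, NARS2, PARS2, RARS2 and YARS2, were called in neither arm. The genes not called lay between -0.14 and 0.18 with SRC-1 siRNA and between -0.18 and 0.12 with control siRNA, and the lowest bound of a 95% interval was -0.47 (PARS2 with control siRNA).

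The cytosolic and the mitochondrial enzyme of an amino acid were set side by side in 14 pairs, with FARS2 against FARSA and FARSB and EARS2 against EPRS1. PARS2, the mitochondrial proline enzyme, was measured but not paired with EPRS1. PARS2 differed by -0.099 with SRC-1 siRNA and -0.18 with control siRNA, and EPRS1 by -0.83 and -0.75. The cytosolic change was the more negative in 12 of the 14 pairs in each arm. The median gap was -0.93 with SRC-1 siRNA and -0.86 with control siRNA on the log2 scale. No gap was tested, and some of these were small. For valine the gap was -0.061 with SRC-1 siRNA and -0.18 with control siRNA. Against FARS2, which counts in both pairs, it was -0.18 and -0.12 for FARSA and -0.13 and -0.098 for FARSB. The gap was widest for alanine with control siRNA (-1.67, AARS1 minus AARS2) and for cysteine with SRC-1 siRNA (-1.59, CARS1 minus CARS2). For leucine it was -1.36 and -1.30, with LARS1 and LARS2 called in opposite directions. The pairs with a positive gap were histidine (0.35 and 0.40) and arginine (0.35 and 0.46). HARS1 and HARS2 are neighbouring genes, and HARS2 differed by -0.14 with SRC-1 siRNA and -0.17 with control siRNA without being called.

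**Figure D4:**
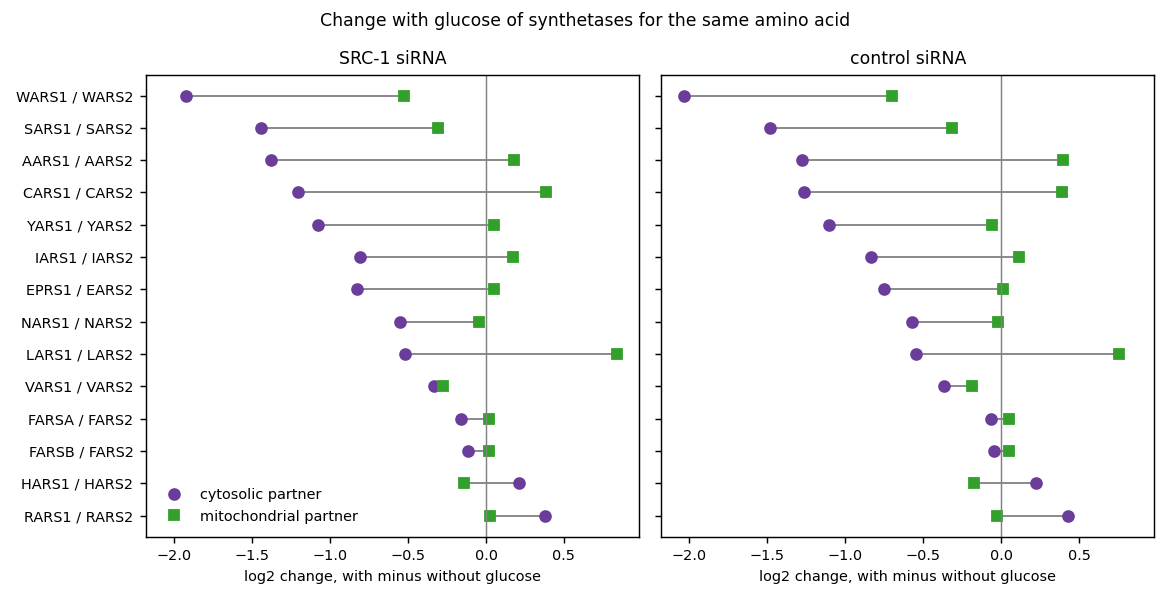
Log2 change with glucose (x axis) of the cytosolic partner (purple circle) and the mitochondrial partner (green square) for the same amino acid, with SRC-1 siRNA on the left and control siRNA on the right. The circle lies left of the square in 12 of 14 pairs in each panel, and the exceptions are the histidine and arginine pairs.

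The probe sets of a gene can read different parts of its transcripts. Taken singly, with adjustment over all 41091 probe sets with 1 gene, 22 of 37 cytosolic probe sets were lower and 1 higher with glucose under control siRNA, and of 33 mitochondrial probe sets 2 were lower and 5 higher. Of all probe sets 11.7% were lower and 12.4% higher. No filter on signal was used here. Below the 40th percentile of mean signal lay 1 of the 37 cytosolic and 7 of the 33 mitochondrial probe sets, so these shares come from sets of unlike signal. In no member were probe sets called in opposite directions. All 4 CARS1 probe sets lay below 0, from -1.66 to -0.27 with control siRNA, and all 3 EPRS1 probe sets from -1.30 to -0.75. LARS1 was uneven: 3 probe sets gave -0.47 to -0.55 and the other, whose name ends in _x_at, 0.089.

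SRC-1 knockdown called none of the 33 members in either medium. Among 13584 genes 0.00736% were called with glucose and 0.0221% without. With glucose, the knockdown effect of the 33 genes had a median of -0.0081 and ran from -0.15 (LARS2) to 0.13 (WARS2), and 0 had an unadjusted p below 0.05, against 5.75% of all genes. Without glucose the median was -0.013 and the range -0.23 (LARS2) to 0.17 (AARS2), and 1 had an unadjusted p below 0.05, LARS2 (limma's unadjusted p = 0.0148, adjusted p = 0.999). Of all genes 3.19% had such a p, so 1 of 33 is near the background. The 95% intervals reached no further than -0.37 and 0.34 with glucose and -0.45 and 0.35 without. WARS1 differed by 0.079 with glucose and -0.033 without, and SARS1 by 0.057 and 0.020. Without glucose, a second LARS2 probe set had means of 7.16 with SRC-1 siRNA and 7.14 with control siRNA. A second AARS2 probe set had 6.28 and 6.36, so neither extreme without glucose was seen on the second probe set. With glucose, second probe sets of LARS2 (7.61 and 7.79) and WARS2 (6.94 and 6.80) moved the same way as the brightest.

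**Figure D5:**
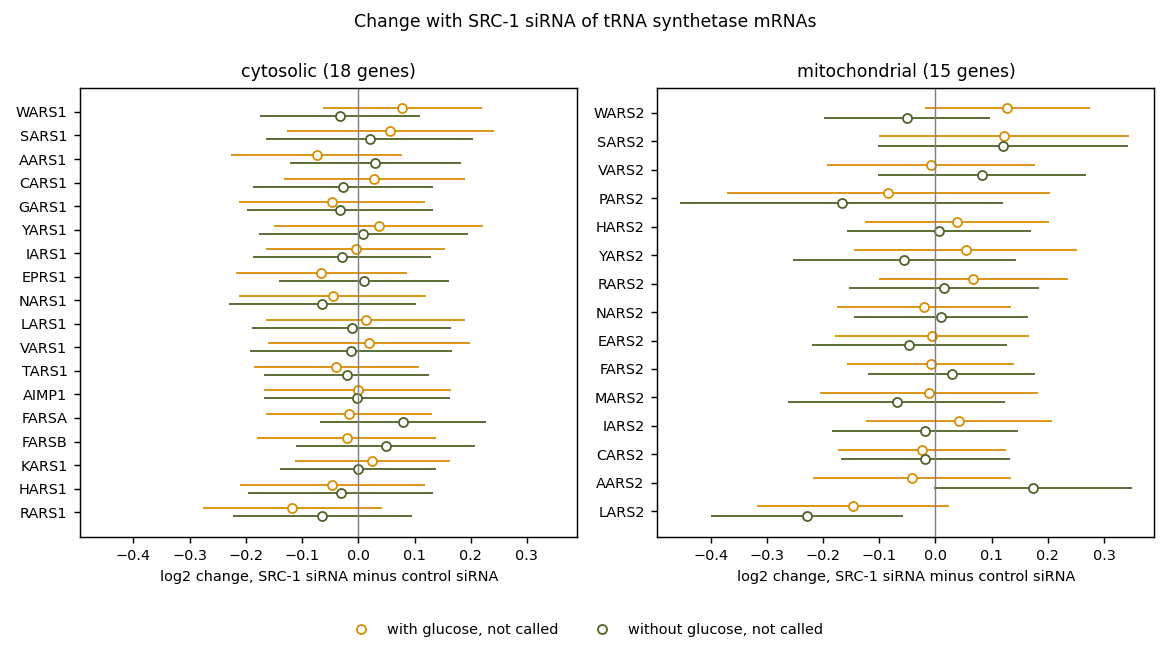
Log2 change with SRC-1 siRNA (SRC-1 siRNA minus control siRNA, x axis) of the 33 members, in orange with glucose and in green without, with 95% intervals. All points are open, since none passed an adjusted p of 0.05, and they lie between -0.23 and 0.17.

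Whether the glucose effect of a member differed between the siRNA arms was tested as an interaction. The interaction was called for none of the 33 members and for 0.00% of all genes, and 0 members had an unadjusted p below 0.05, against 3.42% of all genes. It ran from -0.22 (AARS2) to 0.18 (WARS2), and its 95% intervals reached -0.46 and 0.49. The glucose effects of the 2 arms, which share no array, had a Pearson correlation of 0.993 over the 33 genes, as a description.

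A mixed list of other genes was also measured: genes of tRNA charging and handling, genes of the eIF2 and ATF4 pathway, and EIF4EBP1. Not all of them act on tRNA or sense it. Of 17 such genes, 8 were lower and 2 higher with SRC-1 siRNA, and 7 lower and 5 higher with control siRNA. Their medians were -0.069 and -0.10. In percent, 47.1% were lower and 11.8% higher with SRC-1 siRNA, where 20.0% and 24.6% of all genes were. With control siRNA 41.2% were lower and 29.4% higher, where 21.6% and 23.6% of all genes were. The largest changes were those of EIF4EBP1, an inhibitor of cap-dependent translation (-1.06 ± 0.075 with SRC-1 siRNA and -1.05 ± 0.075 with control siRNA), EIF2AK3, which encodes PERK (-0.97 ± 0.071 and -1.01 ± 0.071), and, with control siRNA, XPOT, the exporter of tRNA from the nucleus (-0.81 ± 0.083 and -0.98 ± 0.083). ATF4 and EIF2AK4, which encodes GCN2, are given for their role and were picked after their values were seen. ATF4 was lower (-0.86 ± 0.061 and -0.90 ± 0.061), and EIF2AK4 higher (0.47 ± 0.12 and 0.33 ± 0.12). Array signals measure ATF4 mRNA, not its translation.

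Elongation and other translation factors of both compartments were measured too. Of 12 such genes, 3 were lower and 1 higher with SRC-1 siRNA, and 5 lower and 1 higher with control siRNA, with medians of -0.12 in both arms. The shares of all genes were 20.0% lower and 24.6% higher with SRC-1 siRNA, and 21.6% lower and 23.6% higher with control siRNA. The largest changes were those of EEF2, which moves the ribosome along the mRNA (-0.47 ± 0.067 with SRC-1 siRNA and -0.49 ± 0.067 with control siRNA), and MTIF2, a mitochondrial initiation factor (-0.37 ± 0.062 and -0.47 ± 0.062). EEF1A2, which delivers charged tRNA to the ribosome, differed by -0.18 ± 0.072 with SRC-1 siRNA and was not called there, and by -0.27 ± 0.072 with control siRNA.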

How the data were processed

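RNA of 8 A549 cultures in 4 groups of 2 was hybridized to 3' Affymetrix arrays, per the labels' protocols. The authors deposited 1 log2 value for each probe set and array, used here unchanged. They lie between 1.98 and 14.7 with array medians of 4.97 to 5.01. The log base was inferred: neighbouring hybridization spikes stood 1.92 to 2.14 units apart. The authors' background correction, summarization and normalization are not given in the sources used here. No background call or scanner file was used, so folds of dim genes may be compressed. Precision is limited by how few arrays there are.

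Of 54675 probe sets, 41091 had 1 gene in the platform annotation, 1801 had several and were named by none, and 11721 were unnamed. Probe sets whose mean lay below the 40th percentile (log2 4.80) were left out, and for each gene the brightest was kept, which gave 13584 genes. All 33 members passed. One limma fit (3.58.1 in R 4.3.3) of all 8 arrays with a mean for each group, 4 residual and 4.35 prior degrees of freedom, gave two-sided moderated tests with Benjamini-Hochberg adjustment over all genes tested and a threshold of 0.05. A permutation of 2 arrays against 2 cannot go below p = 0.333. Beyond the label of biological replicates nothing says how cultures were kept apart, so p-values reflect only how these arrays spread, which may be technical. The code was tested on simulated arrays.

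The members, the lists and the tests were chosen with earlier results of these data known. Values on every array are given for the 8 cytosolic and 4 mitochondrial members with the largest changes under control siRNA among those called and for those against the direction of their list. KARS1, SARS2 and the second probe sets were added after the values were seen. The alternatives were other normalizations, filters and probe set choices, a trended prior, array weights, fewer groups, a replicate block, leaving out each array, a 1.5-fold threshold and single probe sets.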

Additional observations from a re-analysis of the deposited data

How the results depend on the processing

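The count of 13 cytosolic genes lower with glucose was 12 to 14 with SRC-1 siRNA and 13 with control siRNA in every alternative run except 2. It was 8 in each arm at 1.5-fold or more, where 6.40% of all genes were lower with SRC-1 siRNA and 6.97% with control siRNA. The count was 6 in each arm without probe sets named _s_at, _x_at or _a_at, where only 12 cytosolic genes were left to test. Small counts moved. At 1.5-fold, 0 cytosolic genes were higher in each arm, 0 mitochondrial genes were lower with SRC-1 siRNA and 1 with control siRNA, and 1 was higher in each arm. Cytosolic genes higher numbered 1 in each arm without the filter and over single probe sets, and 1 with SRC-1 siRNA under quantile normalization, without those probe sets and with only the groups compared. Mitochondrial genes lower numbered 1 in each arm over single probe sets and 1 with control siRNA without the filter. Leaving out each array gave 1 to 2 cytosolic genes higher in each arm, 1 to 3 mitochondrial genes lower in each arm and 12 to 13 cytosolic genes lower with SRC-1 siRNA. No knockdown or interaction call appeared in any alternative. Of 40 calls of single members, 28 were kept in each alternative that could be run on the gene. There were 19 such alternatives, but 18 for EPRS1, GARS1, IARS1, LARS1 and VARS1. Those genes had no probe set left without the ones named _s_at, _x_at or _a_at, so that run did not test them. The 1.5-fold threshold is not among the alternatives run on single genes. AIMP1 with SRC-1 siRNA turned to 0.036 without the _s_at probe sets. HARS1 with control siRNA lost its call without any 1 of the 4 arrays (0.19 to 0.27), as did SARS2 (-0.35 to -0.27). With SRC-1 siRNA the HARS1 call was lost without any 1 of the 8 arrays (0.14 to 0.22) except replicate 1 with glucose of that arm. In the same arm, leaving out replicate 1 without glucose ended the calls of SARS2 (-0.21), VARS1 (-0.24) and VARS2 (-0.26). Leaving out replicate 2 without glucose ended those of AIMP1 (-0.25) and VARS2 (-0.29). Leaving out replicate 1 with glucose ended that of VARS2 (-0.21), and replicate 2 with glucose that of SARS2 (-0.20). The causes were not tested. Same-numbered arrays of 2 groups deviated together with correlations of -0.096 to 0.12, so the numbers were not taken to pair cultures. A replicate block left 13 cytosolic genes lower in each arm and moved no count.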
